A study of Homo sapiens with 6 samples.

Results

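The genes described here are the repressors of the circadian clock and its immediate output factors: the period genes PER1, PER2 and PER3, the cryptochromes CRY1 and CRY2, the E-box repressors BHLHE40 and BHLHE41 (DEC1 and DEC2), the nuclear receptors NR1D1 and NR1D2 (REV-ERB alpha and beta) and the activator DBP. They were taken by symbol from the 57905 gene rows of the deposited table, and all 10 matched a single row each. The samples were A549 cells, an established human lung adenocarcinoma line, transfected with miR-19a (3 samples) or with the negative control microRNA miR-NC (3 samples). Both were given at 25 nM with a lipid reagent, the labelled time is 24 h, and no group was left without transfection. Poly(A)-selected RNA was sequenced, and total counts per library lay between 15699037 and 17957932. Since no label ties the 3 samples of a group to cultures of their own, p-values reflect only how much these samples varied, which may be technical variation.

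In the mammalian clock, CLOCK or its relative NPAS2 pairs with BMAL1 and binds E-boxes in promoters. The PER and CRY proteins accumulate as products of those promoters, enter the nucleus and silence the same activators, which closes the main loop. BHLHE40 and BHLHE41 compete for E-boxes, and NR1D1 and NR1D2 repress BMAL1 and NPAS2 through a different element, forming the auxiliary loops. DBP and the related factors TEF and HLF activate D-box promoters, which NFIL3 represses. In airway epithelium the clock is known for setting the daily timing of chemokine release. The labels name no step that brings the cells to a common phase. They give 24 h for every sample, which is not a time of day. A difference in mean level and a difference in phase therefore cannot be told apart.

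Because the added microRNA acts through its seed, the mature strand and the seed matches found in clock genes are shown here. The mature miR-19a-3p (RefSeq, GRCh38.p14, chr13:91350939-91350961, plus strand) is printed with its seed, bases 2 to 8, in capitals.
hsa-miR-19a-3p: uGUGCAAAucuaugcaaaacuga
The 3′ UTRs of GENCODE v29 (GRCh38) were searched on the transcript strand for the 8mer TTTGCACA, the 7mer-m8 TTTGCAC, the 7mer-A1 TTGCACA and the 6mer TTGCAC, each site being counted in its strongest class only. Among the 10 members a site of 7 nt or more was found in CRY1 alone, and 6mers were found in PER3 and BHLHE41. PER1, PER2, CRY2, BHLHE40, NR1D1, NR1D2 and DBP held none of the 4 matches. In 10552 tested genes with a 3′ UTR, the strongest site was an 8mer in 6.06%, a 7mer-m8 in 7.39%, a 7mer-A1 in 5.21% and a 6mer in 9.23%. Among the activators, CLOCK held 2 8mers and 2 7mer-m8 sites and NPAS2 held an 8mer. The site of CRY1, the 8mers of CLOCK and NPAS2 and the 6mer of PER3 follow in transcript sense, with the match in capitals.
CRY1 7mer-m8: atctaacTTTGCACtctttga
NPAS2 8mer: gttttaaTTTGCACAgctacac
CLOCK 8mer nearer the stop codon: ggtaaaaTTTGCACAcaaaaca
CLOCK 8mer farther from it: taatattTTTGCACAaaaagga
PER3 6mer: tcccaggTTGCACctgctgc
The CRY1 match lies at chr12:106991572-106991578 (minus strand, exon 13 of 13) and starts 424 nt into a 3′ UTR of 638 nt. That of NPAS2 lies at chr2:100996074-100996081 (plus strand, exon 21 of 21), 492 nt into 1247 nt. In CLOCK, whose 3′ UTR of 7512 nt is much longer, the 8mers are at chr4:55434360-55434367 and chr4:55430616-55430623 (minus strand, exon 22 of 22), and the 7mer-m8 sites begin 911 and 5422 nt after the stop codon. The PER3 6mer is at chr1:7844754-7844759 (plus strand, exon 21 of 21). These positions come from the annotation and not from the deposited table, which names no coordinates.

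**Figure D1:**
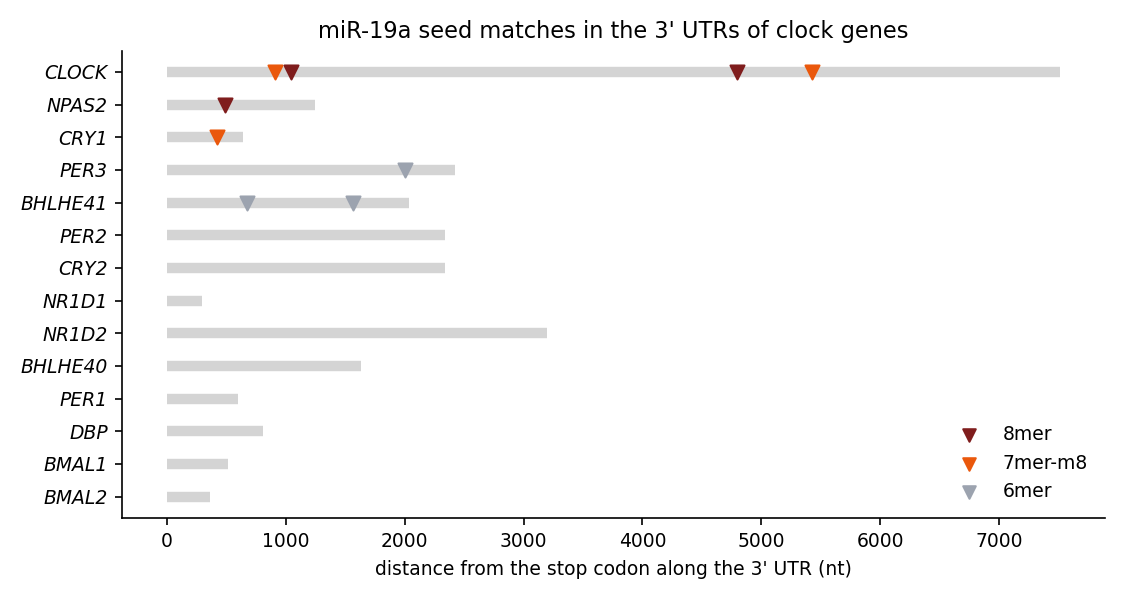
Grey bars show the 3′ UTR of each clock gene from the stop codon (x axis, nt; transcript with the longest coding sequence), and triangles mark miR-19a seed matches by class. CLOCK holds 4 matches of 7 nt or more, NPAS2 and CRY1 hold 1 each, and PER3 and BHLHE41 hold 6mers only.

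The clock repressors moved in different directions after miR-19a. PER2, CRY2 and BHLHE40 rose, CRY1, NR1D1 and NR1D2 fell, and PER1 did not pass the test. With 3 higher and 3 lower, 6 of the 7 members that passed the expression filter (a mean of at least 1 in FPKM, fragments scaled to gene length and library size) were called at an adjusted p under 0.05 with edgeR's quasi-likelihood test. Over all 12452 tested genes 48.4% were called, 24.9% as higher and 23.5% as lower. The same 6 members had groups that did not overlap, against 54.0% of tested genes (27.6% higher and 26.4% lower). The median absolute log2 fold change was 0.33 over the 7 members and 0.18 over all tested genes. PER3, BHLHE41 and DBP lay under the filter and are given with a wider one below. In bulk RNA, fewer cells with a transcript and less of it per cell cannot be told apart.

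**Figure D2:**
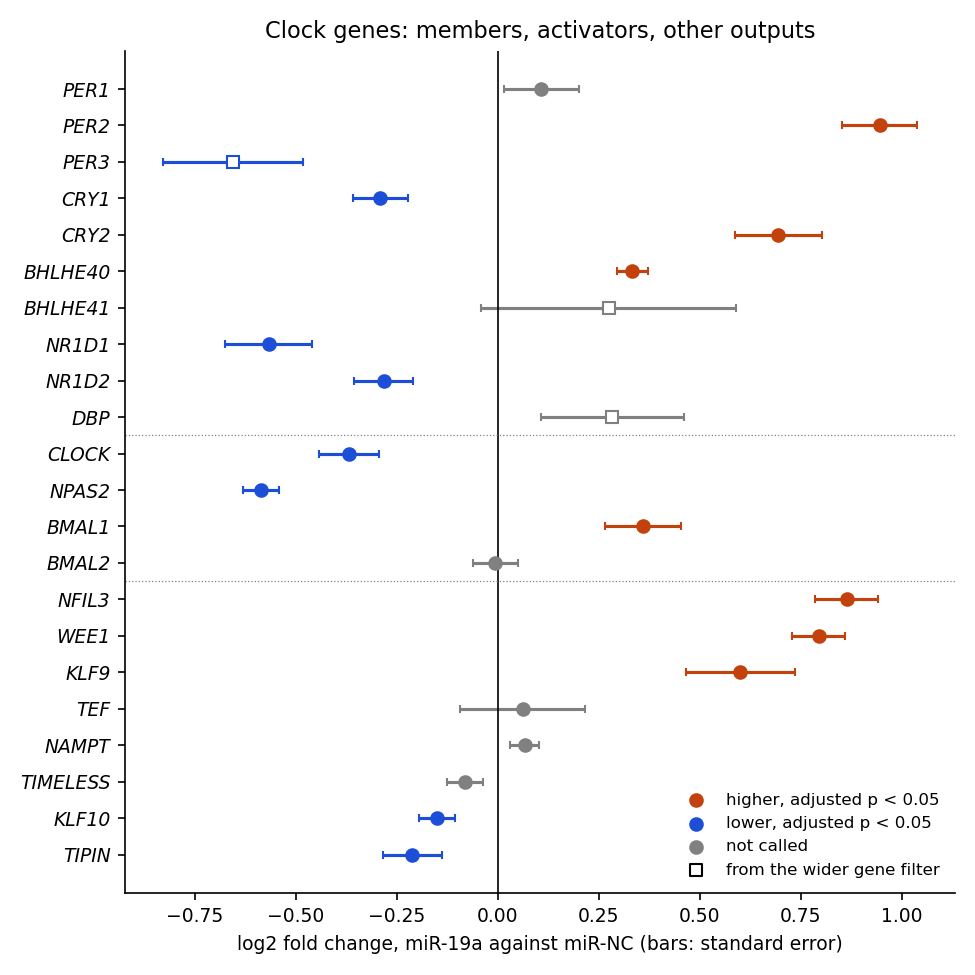
Points show the log2 fold change of miR-19a against miR-NC (x axis) with its standard error, for the 10 members (top), the 4 tested activators (middle) and the 8 other output factors tested (bottom). Open squares are the members tested only with the wider gene filter; PER2 (0.95), NFIL3 (0.86) and WEE1 (0.79) lie farthest to the right, and PER3 (-0.66), NPAS2 (-0.59) and NR1D1 (-0.57) farthest to the left.

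Among the period genes, which encode the PAS-domain partners of the cryptochromes, PER2 rose, PER3 fell and PER1 was not called. PER2 (ENSG00000132326, chr2:238244038-238290102, minus strand) stood at 11.9, 11.95 and 11.2 normalised read counts scaled to library size (CPM) in miR-NC and at 19.4, 23.6 and 24.5 CPM in miR-19a. All 3 miR-19a libraries lay above all 3 controls, with replicate 1 the lowest of them. The log2 fold change was 0.95 (SE 0.093, adjusted p = 8.8e-14), a level 1.93 times the control, and 2.67% of tested genes had a larger absolute change. PER1 (ENSG00000179094), the period gene that responds fastest to cAMP and glucocorticoid signals, stood at 15.1, 15.1 and 15.8 CPM in miR-NC and at 14.5, 17.9 and 17.1 CPM in miR-19a. Its groups overlapped because miR-19a replicate 1 lay below every control, and its log2 fold change was 0.11 (SE 0.092, adjusted p = 0.344). PER3 (ENSG00000049246), the period gene least needed for rhythm in mice, had raw counts of 88, 96 and 76 in miR-NC and of 54, 50 and 69 in miR-19a. It did not reach the expression filter in either group (0.667 ± 0.0702 and 0.417 ± 0.0603 FPKM, mean ± SD, n = 3), yet its groups did not overlap. Under edgeR's filterByExpr, a wider filter that tested 15159 genes and called 43.7% of them (22.7% higher and 21.0% lower), PER3 fell by 0.66 on the log2 scale (SE 0.17, adjusted p = 0.0013).

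Within each library the shares of the period genes were also compared. PER1 made up 48.1% of the summed FPKM of the 3 genes in miR-NC, ahead of PER2 at 37.4% and PER3 at 14.5%. In miR-19a PER2 held 54.1%, PER1 39.0% and PER3 6.96%. The summed level was 4.58, 4.64 and 4.53 FPKM in miR-NC and 5.28, 6.33 and 6.46 FPKM in miR-19a. The PER1 to PER2 ratio of CPM was 1.26, 1.26 and 1.41 in miR-NC and 0.749, 0.760 and 0.696 in miR-19a. The ratio of PER2 to PER3 was 2.27, 2.01 and 2.34 in miR-NC against 5.83, 8.08 and 6.35 in miR-19a. Both ratios separated the groups fully, at the smallest p that a two-sided exact permutation test of 3 against 3 libraries can give (p = 0.1; 0.167 after Benjamini-Hochberg adjustment over 5 ratios), so this design cannot bring them past 0.05.

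The cryptochromes, the transcriptional repressors proper of the PER-CRY complex, moved in opposite directions. CRY1 (ENSG00000008405, chr12:106991364-107093829, minus strand), the stronger repressor of the pair and the member with the 7mer-m8 shown above, stood at 33.9, 33.8 and 32.1 CPM in miR-NC and at 26.0, 28.1 and 27.4 CPM in miR-19a. Every miR-19a library was below every control, and the log2 fold change was -0.29 (SE 0.068, adjusted p = 2.6e-04). CRY2 (ENSG00000121671, chr11:45847118-45883248, plus strand) stood at 8.30, 9.17 and 8.83 CPM in miR-NC and at 13.8, 13.1 and 15.6 CPM in miR-19a. Its groups were as fully apart in the other direction, and CRY2 rose by 0.69 (SE 0.11) on the log2 scale at an adjusted p of 1.3e-07. The CRY1 to CRY2 ratio of CPM was 4.09, 3.68 and 3.64 in miR-NC and 1.88, 2.15 and 1.76 in miR-19a, again at the smallest exact permutation p (0.1, adjusted 0.167). Per length, CRY1 supplied 82.3% of cryptochrome FPKM in miR-NC and 70.2% in miR-19a. The summed level was 8.09, 8.16 and 7.85 FPKM in miR-NC and 7.32, 7.63 and 7.90 FPKM in miR-19a, groups that overlapped. The rise of CRY2 was smaller, at 0.43, with limma on log2(FPKM + 1), a scale that understates changes of low genes.

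**Figure D3:**
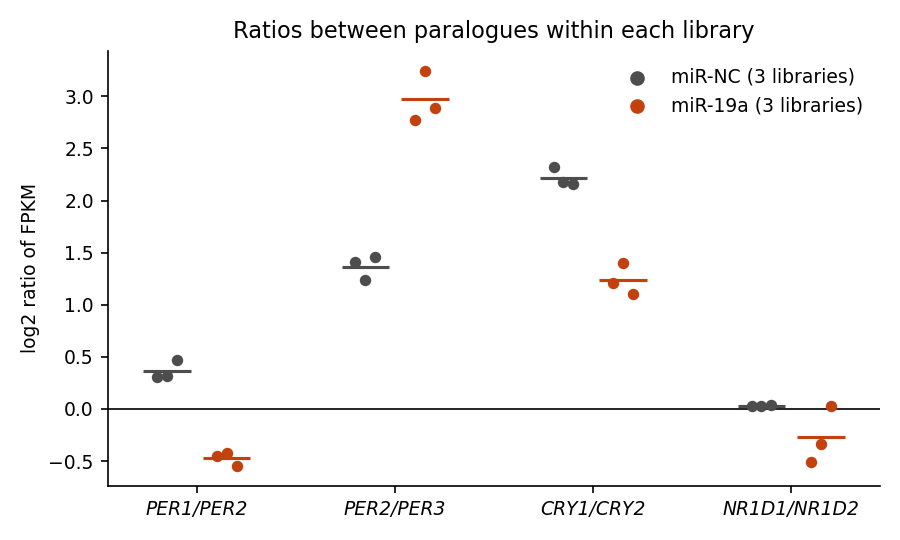
Points show the log2 ratio of FPKM (y axis) between related clock genes within each of the 3 miR-NC and 3 miR-19a libraries, and lines show group means. The PER1/PER2, PER2/PER3 and CRY1/CRY2 ratios are fully separated between groups, whereas 1 miR-19a library overlaps the controls for NR1D1/NR1D2.

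BHLHE40 was by far the most abundant member, and it rose. This basic helix-loop-helix repressor (ENSG00000134107, chr3:4979116-4985323, plus strand) responds to hypoxia, cAMP and growth factors as well as to the clock. It stood at 204, 217 and 201 CPM in miR-NC and at 264, 262 and 257 CPM in miR-19a. The groups were well apart, the log2 fold change was 0.33 (SE 0.039, adjusted p = 4.4e-11), and the level was 1.26 times the control. Its paralogue BHLHE41 (ENSG00000123095) had only 20, 15 and 17 raw counts in miR-NC and 22, 20 and 24 in miR-19a. The groups overlapped, and with filterByExpr the log2 fold change was 0.27 (SE 0.32, adjusted p = 0.515). At this depth a change of BHLHE41 of the size seen in BHLHE40 was not detectable, and the BHLHE40 to BHLHE41 ratio did not separate the groups (exact permutation p = 0.8).

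The REV-ERB genes, heme-binding nuclear receptors that repress without an activation function, were both lower. NR1D1 (ENSG00000126368, chr17:40092787-40100725, minus strand) stood at 14.0, 13.5 and 14.8 CPM in miR-NC and at 8.14, 9.46 and 10.8 CPM in miR-19a. The groups did not overlap, although the miR-19a libraries were spread (SD 1.34 CPM against 0.632 CPM in miR-NC). Its log2 fold change was -0.57 (SE 0.11, adjusted p = 9.1e-06), to 0.675 times the control. NR1D2 (ENSG00000174738, chr3:23945260-23980618, plus strand) stood at 28.9, 27.9 and 30.3 CPM in miR-NC and at 24.3, 25.1 and 22.3 CPM in miR-19a. It fell by 0.28 on the log2 scale (SE 0.073, adjusted p = 8.8e-04). The NR1D1 to NR1D2 ratio of CPM was 0.484, 0.483 and 0.488 in miR-NC and 0.335, 0.378 and 0.485 in miR-19a. Replicate 3 of miR-19a lay within the range of the controls, so the ratio did not separate the groups (exact permutation p = 0.3, adjusted 0.375). NR1D1 shares 263 exonic bases, 9.49% of its exonic length, with THRA on the opposite strand. Whether the counting used strand is unknown, so reads within these shared bases cannot be told apart. THRA, the thyroid hormone receptor alpha gene, had a log2 fold change of 0.16 (adjusted p = 0.0579), and its part in the NR1D1 values was not tested.

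DBP, the D-box activator whose promoter is a classical direct target of CLOCK and BMAL1, was low and not called. Its raw counts were 70, 55 and 59 in miR-NC and 62, 91 and 82 in miR-19a (3.77 ± 0.390 and 4.58 ± 0.747 CPM, mean ± SD, n = 3). The groups overlapped, and with filterByExpr the log2 fold change was 0.28 (SE 0.18, adjusted p = 0.197). DBP (ENSG00000105516) shares 10.1% of its exonic length with SPHK2, a sphingosine kinase gene on the opposite strand. SPHK2 fell by 0.30 on the log2 scale (adjusted p = 0.0015), and its part in the DBP values was not tested.

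**Figure D4:**
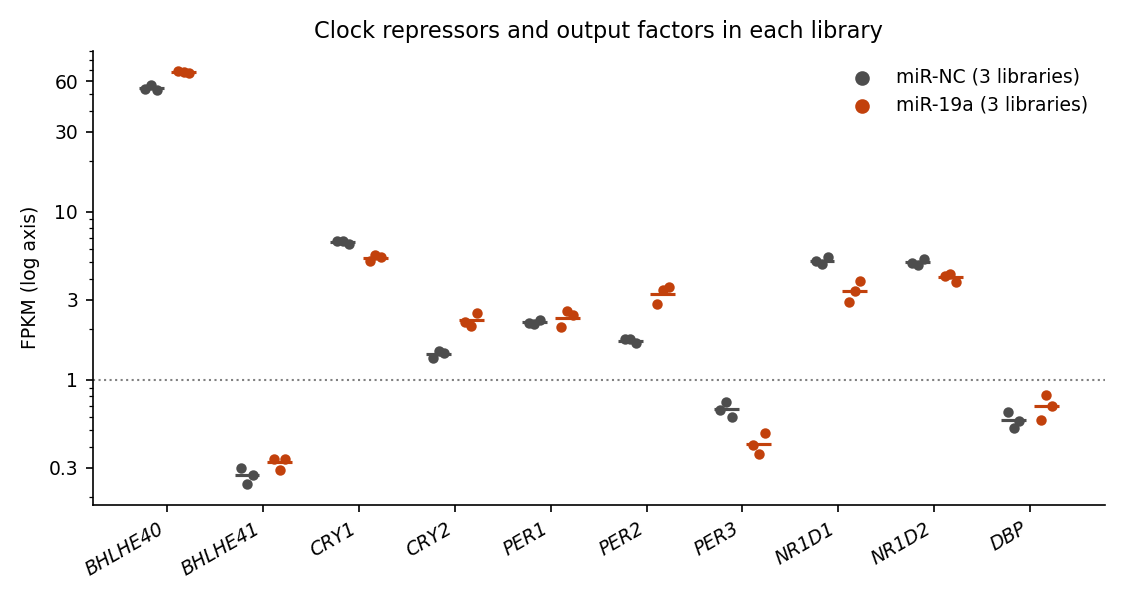
Each point is the FPKM (log y axis) of a member in 1 library, lines are group means of 3 libraries, and the dotted line is the expression filter at 1 FPKM. BHLHE40 lies above 50 FPKM, the CRY, NR1D, PER1 and PER2 points between 1 and 7 FPKM, and PER3, DBP and BHLHE41 below 1 FPKM in every library.

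Set side by side per length, the members spanned a wide range. In miR-NC the order of mean FPKM was BHLHE40 (54.3 ± 1.89), CRY1 (6.61 ± 0.176), NR1D1 (5.11 ± 0.252), NR1D2 (5.01 ± 0.226), PER1 (2.20 ± 0.0666), PER2 (1.71 ± 0.0551), CRY2 (1.42 ± 0.0666), PER3, DBP (0.577 ± 0.0603) and BHLHE41 (0.270 ± 0.030), each as mean ± SD with n = 3. Only the neighbours NR1D1 and NR1D2, and PER3 and DBP, had overlapping ranges. In miR-19a PER2 (3.26 ± 0.395 FPKM) stood above PER1 (2.35 ± 0.255 FPKM), NR1D2 (4.08 ± 0.247) above NR1D1 (3.40 ± 0.480), and DBP (0.697 ± 0.115) above PER3. There the ranges of NR1D2 and NR1D1, of NR1D1 and PER2, and of PER1 and CRY2 overlapped.

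The activators on which these repressors act changed as well. Of 7 listed activators, 4 passed the filter, and of these 1 rose, 2 fell and 1 was not called, beside 48.4% called over all tested genes. NPAS2, the relative of CLOCK and a known target of NR1D1 repression, stood at 136, 143 and 139 CPM in miR-NC and at 88.3, 91.5 and 98.3 CPM in miR-19a, so that its log2 fold change was -0.59 (SE 0.045) at an adjusted p of 5.0e-18. CLOCK, a histone acetyltransferase and DNA-binding partner of BMAL1, stood at 27.1, 31.5 and 28.4 CPM in miR-NC and at 23.2, 22.0 and 22.2 CPM in miR-19a (-0.37, SE 0.074, adjusted p = 2.6e-05). Both carry 8mers in the transcript model used for the search, and both lay wholly below the controls. Over all 639 tested genes with an 8mer, 309 were called lower and 99 higher. Of 7609 with no match, 1630 were called lower and 2249 higher. In the 7mer-m8 class, to which CRY1 belongs, 290 of 780 were called lower and 185 higher. The part of the sites in the changes of CLOCK, NPAS2 and CRY1 was not tested. BMAL1, the shared partner and another known NR1D1 target, had no match and rose by 0.36 (SE 0.094, adjusted p = 9.6e-04), or by 0.24 with limma on log2(FPKM + 1). Its libraries were at 13.6, 13.6 and 11.9 CPM in miR-NC and at 15.9, 16.8 and 17.4 CPM in miR-19a. BMAL2, its paralogue, was not called at -0.01 (SE 0.055, adjusted p = 0.945). RORA and RORB, which activate the elements that NR1D1 and NR1D2 repress, were under the filter, with 13 to 25 raw counts for RORA and at most 4 for RORB in any library. RORA had no match in the transcript model used for the search but held 4 matches, the strongest an 8mer, in its longest annotated 3′ UTR, and with filterByExpr it was not called (-0.14, adjusted p = 0.763).

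Around this core, other output factors were divided. Of 11 listed genes 8 were tested, 3 rose, 2 fell and 3 were not called, beside 48.4% called over all tested genes. Their median log2 fold change was 0.06, beside 0.00 over all tested genes. NFIL3, the D-box repressor and a known NR1D1 target, rose from 18.5, 15.4 and 19.04 CPM to 31.0, 33.4 and 31.9 CPM, by 0.86 (SE 0.078, adjusted p = 3.8e-15). WEE1, the kinase that holds CDK1 inactive and a classical clock-controlled gene, rose from 25.1, 25.3 and 26.0 CPM to 45.4, 44.2 and 43.0 CPM, by 0.79 (SE 0.065, adjusted p = 6.5e-17). It had no match in the transcript model used for the search but a 7mer-m8 in its longest annotated 3′ UTR. KLF10, a clock-controlled Krüppel-like factor with an 8mer, fell by 0.15 (SE 0.044, adjusted p = 0.0031). TIPIN, the partner of TIMELESS at replication forks, fell by 0.21 (SE 0.073, adjusted p = 0.013). TIPIN lost its call when miR-19a replicate 3 was left out (-0.19, adjusted p = 0.0519), and likewise for miR-NC replicate 1 (-0.20, adjusted p = 0.0524) or replicate 3 (-0.17, adjusted p = 0.0817).

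Among enzymes that act on PER and CRY proteins, 17 kinases, phosphatases, ubiquitin ligases and proteases were tested. Of these 3 rose, 4 fell and 10 were not called, with a median of -0.05, beside 48.4% called over all tested genes. PRKAA1, the AMP-activated kinase subunit that marks CRY1 for degradation, fell by 1.13 (SE 0.055, adjusted p = 1.1e-27), to 0.457 times the control. In the transcript model used for the search its 3′ UTR had only 8 nt and no match. Its longest annotated 3′ UTR, of 3399 nt, held 2 matches, the strongest an 8mer. CSNK1E, casein kinase 1 epsilon, which phosphorylates PER proteins, fell by 0.25 (SE 0.048, adjusted p = 1.4e-05). BTRC, a ubiquitin ligase subunit for phosphorylated PER and a carrier of a 6mer, rose by 0.31 (SE 0.065, adjusted p = 6.2e-05). PRKAA2, the other catalytic AMPK subunit, holds 2 matches, the strongest a 7mer-m8, and rose by 0.23 (SE 0.089, adjusted p = 0.024). It was not called when miR-19a replicate 2 (0.19, adjusted p = 0.126) or miR-NC replicate 3 (0.21, adjusted p = 0.0752) was left out. Nor was it called with DESeq2 (adjusted p = 0.0740) or with limma on log2(FPKM + 1) (0.14, adjusted p = 0.126) or on log2(FPKM + 0.1) (adjusted p = 0.131). The 7 calls of the list became 4 without miR-19a replicate 2 and 4 with DESeq2.

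Of 14 corepressor genes used by PER-CRY and NR1D factors, all tested, 1 rose and 6 fell (median -0.08). Over all tested genes 48.4% were called, so the list lay near that share. SIN3A, a scaffold recruited by the PER complex, fell by 0.39 (SE 0.050, adjusted p = 6.1e-10), and its transcript with the longest coding sequence carries a 7mer-A1, absent from the longest annotated 3′ UTR. TBL1XR1, a subunit of the NCOR complex with 3 6mers in its 3′ UTR, fell by 0.38 (SE 0.066, adjusted p = 1.3e-06). HDAC1, a histone deacetylase, rose by 0.29 (SE 0.044, adjusted p = 1.1e-07). NCOR1 and HDAC3, the core of the complex through which NR1D1 represses, were not called (0.01, adjusted p = 0.801, and 0.10, adjusted p = 0.178).

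Signals that feed PER1, PER2 and BHLHE40 from outside the loop were examined through 3 lists. The counts below stand beside 48.4% called over all tested genes (24.9% higher and 23.5% lower). Of 12 genes of the cAMP and CREB route 6 rose and 1 fell (median 0.13). The nuclear receptor gene NR4A1 rose by 1.04 (SE 0.063, adjusted p = 6.8e-23) and CREM, a CREB relative that also encodes an inducible repressor, by 0.48 (SE 0.063, adjusted p = 1.2e-09). CRTC3, a CREB coactivator, fell by 0.30 (SE 0.060, adjusted p = 3.2e-05). Of 7 tested genes of the glucocorticoid list 2 rose and 3 fell (median -0.05). The transcription factor CEBPD rose by 1.23 (SE 0.060, adjusted p = 1.2e-27) and TSC22D3, known as GILZ, by 1.14 (SE 0.085, adjusted p = 9.9e-19). FKBP5, a chaperone of the glucocorticoid receptor and a standard marker of its activity, fell by 0.27 (SE 0.071, adjusted p = 0.0011). PDK4, a kinase of pyruvate dehydrogenase, fell by 0.23 (SE 0.086, adjusted p = 0.023), but was not called when miR-19a replicate 1 (-0.19, adjusted p = 0.118), miR-NC replicate 1 (-0.22, adjusted p = 0.0663) or miR-NC replicate 3 (-0.22, adjusted p = 0.0508) was left out, with DESeq2 (adjusted p = 0.0666) and with no gene filter (adjusted p = 0.0582). Leaving out any of these 3 libraries took the list from 5 calls to 3. Of 9 tested hypoxia genes 3 rose and 1 fell (median 0.14). VEGFA, an angiogenic factor, rose by 0.41 (SE 0.057, adjusted p = 7.4e-09) and NDRG1 by 0.21 (SE 0.048, adjusted p = 2.0e-04), whereas HIF1A, the oxygen-regulated factor itself and a carrier of a 7mer-A1, fell by 0.29 (SE 0.039, adjusted p = 3.2e-09). In their longest annotated 3′ UTRs only, FKBP5 held 3 matches, the strongest an 8mer, and CREM held 2 6mers.

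**Figure D5:**
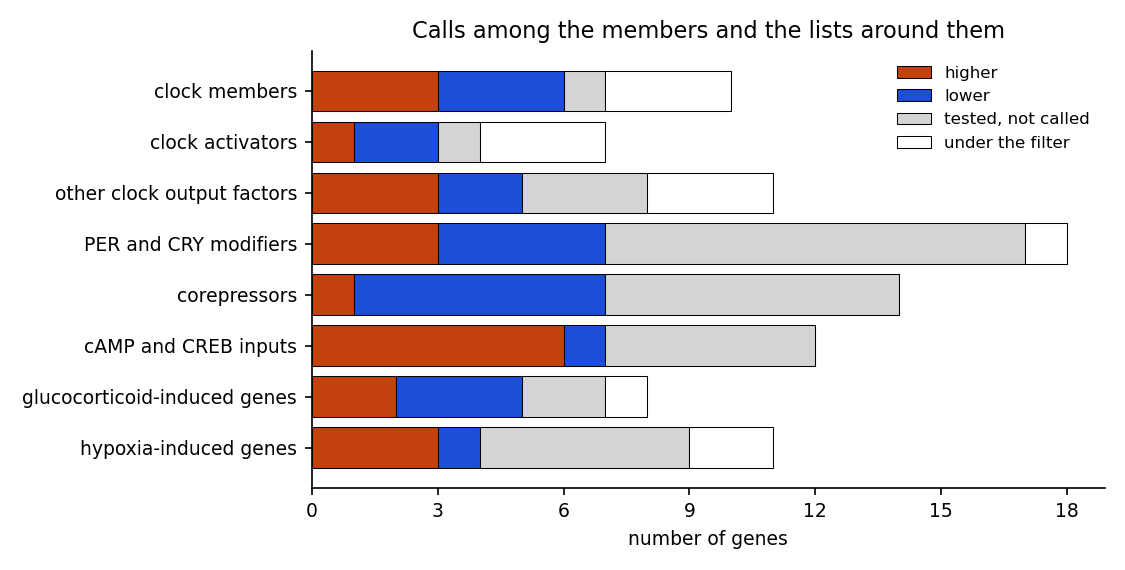
Bars count genes (x axis) in the 10 clock members and in each list, split into higher, lower, tested but not called, and under the expression filter. Members and activators are called in both directions, and the cAMP and CREB list has 6 higher and 1 lower. Over all tested genes 48.4% were called.

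The promoters of the members were read for the elements through which the clock acts on itself. RefSeq windows of 300 bases (GRCh38.p14, 250 before to 50 after a start) were available for all 10 members, in 13 windows since some have more than 1 start. Both strands were searched for the E-box CACGTG, the E-prime box CACGTT, the D-box as TTATGTAA or TTACGTAA, and the cAMP response element TGACGTCA. An E-box was in 4 of 13 windows (PER1, BHLHE40, BHLHE41 and NR1D2), against 7.26% of 35116 windows of all genes. The E-prime box was also in 4 (PER2, CRY1, CRY2 and NR1D1), against 5.34%. A D-box was in 3 (PER2, PER3 and NR1D2), against 1.01%. The full cAMP response element was in none, against 1.85%, which says only that these letters are not in these windows. The matches for the period genes and NR1D2 are shown in transcription sense, with the element in capitals, and those of the other members are not printed.
PER1 E-box, chr17:8152562-8152587, minus strand: cacccaggtcCACGTGcgcccgtgtg
PER2 E-prime box, chr2:238288792-238288817, minus strand: cgcgcgcggtCACGTTttccactatg
PER2 D-box, chr2:238288596-238288623, minus strand: ccgctgcggcTTACGTAAccgccgccgg
PER3 D-box, chr1:7784104-7784131, plus strand: agcccgcgcgTTATGTAAcgcgccccgg
NR1D2 E-box, chr3:23945956-23945981, plus strand: cgggcggggaCACGTGaggccgctcg
NR1D2 E-box nearer the start, chr3:23946006-23946031, plus strand: gccgcagggaCACGTGggggcggggg
NR1D2 D-box, chr3:23945917-23945944, plus strand: tgacgcggcaTTACATAAtgggcgctga
The 2 members with an E-prime box that rose, PER2 and CRY2, stood beside 2 that fell, CRY1 and NR1D1. Of the genes with an E-box, BHLHE40 rose, NR1D2 fell, and PER1 and BHLHE41 were not called. The D-box was likewise in a gene that rose (PER2) and in genes that fell (PER3 and NR1D2).

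ZMYND11 and RNF11, chosen for a large difference already known in these data, had log2 fold changes of -1.62 and -1.71; miR-19a itself was not measured here. Of the markers of A549 cells, KRT8, KRT18, KRT7 and CDH1 were expressed and EPCAM was low (0.603 and 0.763 FPKM in miR-NC and miR-19a). The 7 fibroblast markers summed to 0.900 to 1.10 FPKM in miR-NC and 2.53 to 3.01 FPKM in miR-19a, nearly all from COL1A1 (0.903 and 2.57 FPKM). COL3A1 (0.0233 and 0.0667 FPKM) and LUM (0.0133 and 0.0833 FPKM) were also higher in miR-19a, at very low levels. COL1A2, DCN, PDGFRB and PDGFRA were each at or under 0.0233 FPKM. The 5 leukocyte markers summed to 0.880 to 1.32 and 1.48 to 1.75 FPKM, mostly CD14, with CD3E at 0 counts in every library, and VWF and CDH5 summed to at most 0.050 FPKM. The part of these marker differences in the clock values was not tested. PER2, the member with the largest change among those tested, had a log2 CPM profile over the 6 libraries most like those of OAS3, VPS4A and PIK3C2B (Pearson r = 0.999, 0.998 and 0.998 among 12110 genes). This is a description only, since 871 genes exceeded r = 0.95 and the points share the group difference.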

How the data were processed

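Poly(A)-selected RNA of 6 A549 samples was sequenced as paired reads, per the labels' protocols, and the submitters' processing notes name bcl2fastq 2.17.1.14. Not given in the sources used here were aligner, counting tool, annotation, strand setting and build. In the deposited table each gene has a raw count per sample. Its other columns hold FPKM, so called per the file headers, which the authors had rounded. Of 57905 identifiers, 51996 took a symbol from a gene name table and 342 from GENCODE v29.

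Counts were tested with edgeR 4.0.16 (R 4.3.3; quasi-likelihood, two-sided, TMM factors, Benjamini-Hochberg over the 12452 genes whose mean FPKM reached 1). CPM are TMM-scaled, and standard errors divide the size of the log2 fold change by the root of F. Every pair of libraries within a group differed by more than sampling noise (chi-square per gene 1.57 to 3.73). The members and lists were chosen with earlier results of these data known. Named are all members and listed activators (1 activator is not reported here), up to 2 rising and 2 falling genes with the smallest adjusted p per other list, the 3 genes most like the member with the largest change, ZMYND11 and RNF11 (chosen as large responders in these data); NCOR1, HDAC3, THRA, SPHK2 and the genes of the closing observations were chosen after their values were seen. 3′ UTRs come from the GENCODE v29 transcript with the longest coding sequence. The count test was also run on simulated counts that gave all genes the same dispersion, so that run does not measure its error rate in these data. Alternatives used DESeq2 1.42.0, limma 3.58.1, other factors and filters, a replicate block, the longest 3′ UTR, FPKM or TPM, and each library left out in turn.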

Additional observations from a re-analysis of the deposited data

How the results depend on the processing

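The 6 calls among clock members kept their direction and stayed past the threshold under every alternative that could test them, and PER1 was not called under any (log2 fold change 0.04 to 0.19, adjusted p 0.125 to 0.772). Leaving out each library in turn gave 0.88 to 1.04 for PER2, 0.62 to 0.75 for CRY2, -0.32 to -0.26 for CRY1, 0.31 to 0.37 for BHLHE40, -0.68 to -0.47 for NR1D1 and -0.32 to -0.23 for NR1D2. With the wider filter, a check added after the data were seen, PER3 gave -0.77 to -0.56 (adjusted p at most 0.0172), BHLHE41 0.19 to 0.37 and DBP 0.17 to 0.40, the last 2 not called in any. With a mean FPKM of at least 5, fewer genes are tested, and calls were 1 higher and 1 lower among members, 1 for activators, 3 for other output factors, 3 for the cAMP and CREB list, 2 for the glucocorticoid list and 2 for the hypoxia list. DESeq2 called 4 PER and CRY modifiers and 3 glucocorticoid genes, and no filter called 3 of the latter; the cause was not tested. Leaving out a library gave 4 to 6 calls among modifiers and 3 to 4 in the glucocorticoid list. Same-numbered libraries did not deviate together (r = 0.0085, 0.00055 and -0.031). This cannot decide whether the samples were paired, since pairing with small shared effects could give the same values. With the replicate block all genes gave 3083 higher and 2903 lower against 3095 and 2928, and the members stayed at 3 and 3. Low counts limit BHLHE41, DBP and PER3.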

Other observations

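Of the genes in the clock lists that lay below the expression filter, 7 could be tested with the wider filter, and 3 of them were called (PER3, USP2 and CIART), beside 43.7% of all 15159 genes it tested. BHLHE41, DBP and RORA were among those not called. USP2, a deubiquitinase with a strongly rhythmic transcript that acts on PER1, CRY1 and BMAL1 proteins, had 10, 11 and 7 raw counts in miR-NC and 49, 28 and 28 in miR-19a. With the wider gene filter it rose by 1.83 on the log2 scale (SE 0.34, adjusted p = 7.9e-06), and its groups did not overlap. Without miR-19a replicate 1, the highest library, the change was 1.47 (adjusted p = 0.0014). CIART, also called CHRONO, a repressor that binds BMAL1, had 13, 13 and 14 raw counts in miR-NC and 3, 5 and 6 in miR-19a. It fell by 1.56 (SE 0.47, adjusted p = 0.0049), and with each library left out in turn its adjusted p was at most 0.0311. At these counts a fold change rests on few reads, and both genes were singled out after their values were seen.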
